A study of Homo sapiens with 6 samples.

Results

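The promoters of 5 GATA transcription factor genes, GATA2, GATA3, GATA4, GATA5 and GATA6, were examined for recovery with an antibody to NuMA, a large nuclear protein best known from the poles of the mitotic spindle. The 5 genes were taken by name, and each has 1 window among the 19957 promoter windows of the deposited count table, which run 1000 bp to either side of an annotated transcription start and are 2001 bp long. GATA1, another GATA factor gene, was not among the 5 and is given with a list below, so family counts and medians leave it out. All libraries came from MRC5, a line of wild-type human lung fibroblasts, and no treatment is named for any of them. They comprised 2 NuMA ChIP libraries, 2 ChIP libraries made with immunoglobulin G (IgG), which measures non-specific recovery, and 1 input library of sheared chromatin for each of those arms. The question was where in the genome NuMA binds. All groups share 1 cell line, and the labels do not tie the replicates to separate cultures. The p-values below measure the spread between these libraries, which may be technical. Counts of chromatin at a promoter are not a measure of the gene's RNA, so they can neither show whether a GATA gene is expressed nor check the labelled cell type.

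GATA factors bind DNA through zinc fingers that recognise the letters GATA, and they switch on lineage programmes during development. GATA2 maintains blood stem and progenitor cells, GATA3 directs T-helper and luminal breast cell fate, and GATA4, GATA5 and GATA6 act in heart, gut and other organs of mesoderm and endoderm, GATA6 also in lung epithelium. Genes of this kind typically lie in stretches rich in CpG dinucleotides that are held silent by Polycomb proteins in cells that do not use them. None of this background was measured here.

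Each window spans the 5' end of its gene on build hg38, except at GATA3, where it spans a start inside the gene. The RefSeq 5' end of GATA3 lies 8270 bp from the centre of its window. The GATA2 window covers chr3:128492186-128494186, GATA3 chr10:8052603-8054603, GATA4 chr8:11675958-11677958, GATA5 chr20:62474971-62476971 and GATA6 chr18:22168442-22170442. The RefSeq start nearest to the centre lay 15 bp away for GATA2, 38 bp for GATA3, 23 bp for GATA4, 24 bp for GATA5 and 147 bp for GATA6. None of the 5 windows overlaps another window of the table. The GATA2 window lies wholly within the antisense gene GATA2-AS1, and the GATA3 and GATA6 windows share 882 bp and 527 bp with GATA3-AS1 and GATA6-AS1, so signal there cannot be assigned to 1 of the 2 genes. For GATA2, 1 of 2 RefSeq starts with a sequence in the reference lies in the window, and for GATA3 1 of 6, so the other starts of these genes were not measured.

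The 250 bases before the start inside the window are shown for the 3 members with a sequence in the reference (RefSeq, GRCh38.p14), to show how rich in CG dinucleotides they are. They run 5' to 3' on the gene's own strand, and capitals mark each CG dinucleotide.

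GATA2 (chr3:128493202-128493451, minus strand): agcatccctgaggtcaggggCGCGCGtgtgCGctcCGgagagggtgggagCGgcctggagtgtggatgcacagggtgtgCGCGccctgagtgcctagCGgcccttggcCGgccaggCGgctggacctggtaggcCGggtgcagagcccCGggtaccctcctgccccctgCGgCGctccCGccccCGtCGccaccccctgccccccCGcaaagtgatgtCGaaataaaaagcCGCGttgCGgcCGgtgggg

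GATA3 (chr10:8053391-8053640, plus strand): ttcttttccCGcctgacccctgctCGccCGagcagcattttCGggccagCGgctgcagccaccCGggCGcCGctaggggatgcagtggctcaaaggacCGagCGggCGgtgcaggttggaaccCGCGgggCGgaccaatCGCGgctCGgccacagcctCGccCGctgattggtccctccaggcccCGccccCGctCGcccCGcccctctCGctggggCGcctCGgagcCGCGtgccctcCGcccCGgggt

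GATA6 (chr18:22169339-22169588, plus strand): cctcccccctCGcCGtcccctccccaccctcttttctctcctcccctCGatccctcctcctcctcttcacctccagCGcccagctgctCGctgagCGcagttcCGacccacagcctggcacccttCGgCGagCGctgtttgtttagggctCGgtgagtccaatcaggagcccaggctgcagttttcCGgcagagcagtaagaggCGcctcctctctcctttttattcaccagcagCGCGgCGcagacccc

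These stretches hold 24, 30 and 16 CG dinucleotides, in that order. Taken with the 50 bases after the start, GC content was 72.3% at GATA2, 74.7% at GATA3 and 66.7% at GATA6, against a median of 58.7% over 35116 RefSeq promoters of the same 300 bases. The observed over expected CpG ratio was 0.74, 0.87 and 0.82, against a median of 0.58. Hence all 3 lay above the middle of promoters in both measures, with 84.9%, 89.7% and 71.4% of promoters lower in GC content. The letters of the GATA element, AGATAA or TGATAA and their reverse complements TTATCT and TTATCA, were in none of the 3 stretches of 300 bases and in 16.3% of all promoters. This says only that those letters are not in these windows of sequence.

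Libraries differed in depth, with total promoter counts from 366594 in IgG ChIP replicate 2 to 1080879 in NuMA ChIP replicate 1. Levels are therefore given as counts per 1000000 promoter counts (CPM), where 1 count is worth 0.925 to 2.73 CPM. Since all windows have the same length, CPM can be compared between genes apart from differences in how well reads can be placed. The intervals given for single libraries treat every count as independent and leave out the variation between libraries. Reads from PCR are not independent molecules, so these intervals may be too narrow even for counting error. Counts of 6 to 10 were also even more often than an even spread gives (72.7% to 79.8% against 60%). Why was not tested, and counts that come in pairs would not be independent either.

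In NuMA ChIP the family ranged from very strong to weak recovery. GATA5 was the highest at 318 ± 98.5 CPM (SD, n = 2), followed by GATA2 at 133 ± 52.2, GATA6 at 83.4 ± 11.9, GATA3 at 31.0 ± 13.7 and GATA4 at 28.2 ± 17.6 (SD, n = 2 each). Both libraries gave this order, apart from GATA3 and GATA4, which tied at 27 counts each in replicate 2. GATA5 lay above all other members in both libraries. GATA2 and GATA6 differed by less than the spread of GATA2, with 64 and 61 counts in replicate 2, and GATA3 and GATA4 overlapped.

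The inputs showed far less variation. There the 5 windows lay between 48.0 and 79.5 CPM in the NuMA input and between 50.5 and 92.2 CPM in the IgG input, so the highest was 1.66 and 1.82 times the lowest, against 24.6 and 6.11 times in NuMA ChIP replicates 1 and 2 and 6.55 and 2.6 times in IgG ChIP. In IgG ChIP the order was different again. GATA5 at 93.9 ± 32.5 CPM and GATA4 at 91.2 ± 36.3 stood side by side at the top, with GATA2 at 69.7 ± 25.3, GATA6 at 49.4 ± 8.15 and GATA3 last at 22.6 ± 6.67 (SD, n = 2 each).

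**Figure D1:**
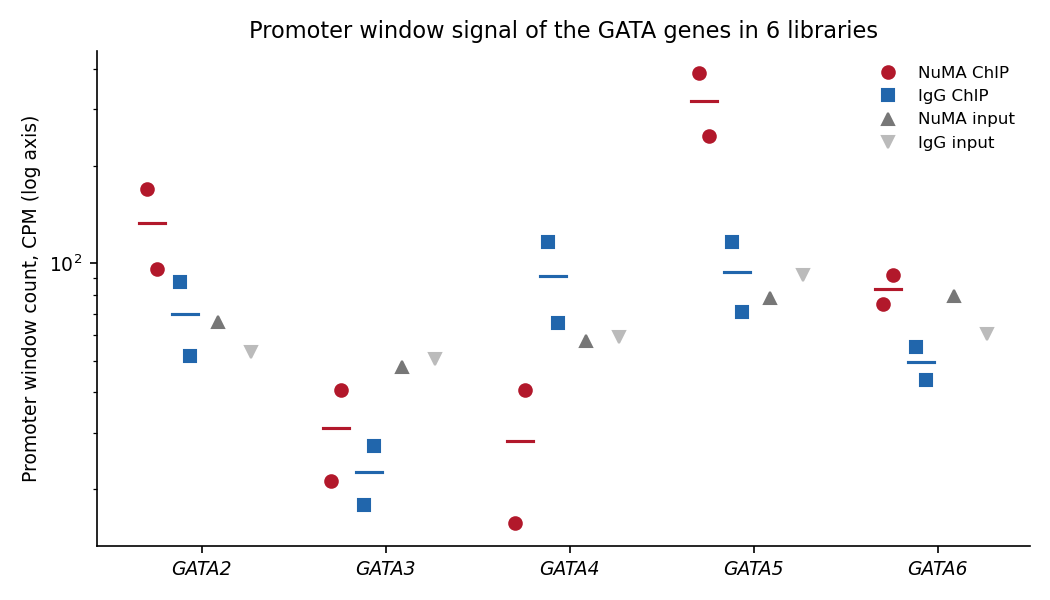
Promoter window counts of the 5 GATA genes as CPM on a log axis, 1 point per library, with a bar at the mean of the 2 ChIP libraries of a group. GATA5 reached 388 and 248 CPM in NuMA ChIP, while GATA4 lay at 15.7 and 40.6, below its IgG and input values.

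NuMA ChIP was then set against IgG ChIP with edgeR's quasi-likelihood test over all windows with enough counts. Differences are log2 fold changes (1 means 2-fold) with standard errors (SE), and p-values are Benjamini-Hochberg adjusted over 15727 windows with a threshold of 0.05. GATA5 and GATA2 were higher with the NuMA antibody, GATA4 was lower, and GATA3 and GATA6 did not pass. So 2 of 5 members rose, where 16.8% of all windows tested did, and 1 of 5 fell, where 23.9% did, against 40.7% for either direction. With 5 members, these counts are too few to set the family apart from that background. The median of the 5 was 0.89, against -0.04 over all windows tested. All directions are relative to the bulk of promoters, whose counts set the scaling. When libraries were instead scaled on the deposited summed profile far from the start, the median of all windows moved by 1.30, 94.6% of calls in place of 41.2% were higher, and 4 members passed as higher while GATA4 no longer passed (-0.39, adjusted p = 0.58).

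GATA5, a factor of heart and gut development, held 419 and 165 counts in NuMA ChIP replicates 1 and 2 (388 and 248 CPM). In IgG ChIP it held 72 and 26 (117 and 70.9 CPM), in the NuMA input 57 (78.1 CPM, 95% exact binomial interval 59.2 to 101) and in the IgG input 73 (92.2 CPM, 72.3 to 116). Both NuMA libraries lay far above the other 4, which overlapped one another. The rise over IgG was 1.94 ± 0.58 (SE, adjusted p = 0.00666), or 3.84-fold, and 98.4% of tested windows had a lower value. In each NuMA library more than 99% of windows held fewer counts than GATA5 (99.6% and 99.3%). The call ended when IgG replicate 1 (2.57, adjusted p = 0.0738) or IgG replicate 2 (1.71, adjusted p = 0.202) was left out. Here and below, a group left with 1 library is assumed to vary like the other group, which alone gives the spread, so a call can end although the fold is larger. The direction stayed in all 16 alternatives, from 1.33 to 3.20.

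GATA2, the blood progenitor factor, held 184 and 64 counts in NuMA ChIP (170 and 96.4 CPM) and 54 and 19 in IgG ChIP (87.6 and 51.8 CPM). Input counts were 48 in the NuMA arm (65.8 CPM, 48.5 to 87.2) and 42 in the IgG arm (53.1 CPM, 38.2 to 71.7). The groups did not overlap, but NuMA replicate 2 and IgG replicate 1 lay close together. Such separation with both NuMA libraries on top was found in 32.0% of tested windows. GATA2 rose over IgG by 1.12 ± 0.43 (SE, adjusted p = 0.0325), or 2.18-fold. Its call ended when NuMA replicate 1 (0.50, adjusted p = 0.502) or IgG replicate 2 (0.88, adjusted p = 0.235) was left out, in a DESeq2 test (1.18, adjusted p = 0.0912) or with scaling on total counts (0.91, adjusted p = 0.0626), and with IgG replicate 1 left out it was at 1.78.

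GATA6, which acts in lung epithelium, heart and endoderm, held 81 and 61 counts in NuMA ChIP (74.9 and 91.8 CPM) against 34 and 16 in IgG ChIP (55.2 and 43.6 CPM). Both NuMA libraries were above both IgG libraries. The NuMA input, with 58 counts (79.5 CPM, 60.4 to 103), lay between the NuMA libraries, and the IgG input, with 48 counts (60.7 CPM, 44.7 to 80.4), lay between the groups. The fitted difference was 0.89 ± 0.40 (SE) and missed the threshold (adjusted p = 0.0637). It passed with all 6 libraries in the fit (1.05, adjusted p = 0.0446) and without IgG replicate 1 (1.30, adjusted p = 0.0446).

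GATA3, the T-helper and luminal factor, was thinly covered in every ChIP library. It held 23 and 27 counts in NuMA ChIP (21.3 and 40.6 CPM) and 11 and 10 in IgG ChIP (17.8 and 27.3 CPM), and the groups overlapped. Input counts were higher, at 35 (48.0 CPM, 33.4 to 66.7) and 40 (50.5 CPM, 36.1 to 68.8). The difference of 0.60 ± 0.70 (SE, adjusted p = 0.494) was smaller than its error, so these counts neither show a difference nor exclude one. Leaving out a library gave 0.27 (without NuMA replicate 2) to 0.98 (without IgG replicate 2), and neither passed.

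GATA4, a cardiac and endodermal factor, went the other way. It held 17 and 27 counts in NuMA ChIP (15.7 and 40.6 CPM) against 72 and 24 in IgG ChIP (117 and 65.5 CPM). Both NuMA libraries were below both IgG libraries, an arrangement found in 40.8% of tested windows, and below the inputs at 42 counts (57.6 CPM, 41.5 to 77.8) and 47 counts (59.4 CPM, 43.6 to 79.0). The fall of -1.63 ± 0.44 (SE, adjusted p = 0.00267), or 3.10-fold, placed GATA4 above 20.2% of tested windows. The call ended when IgG replicate 1 (-0.90, adjusted p = 0.258) or NuMA replicate 1 (-1.13, adjusted p = 0.147) was left out, and in the DESeq2 test (-1.58, adjusted p = 0.0577).

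**Figure D2:**
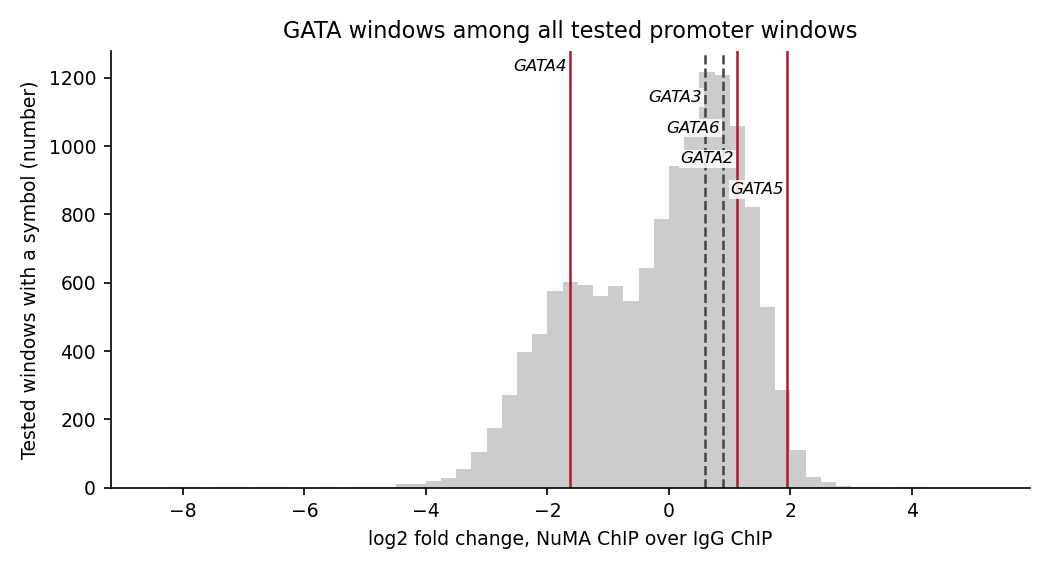
Histogram of log2 fold changes, NuMA ChIP over IgG ChIP, for tested windows with a gene symbol (0.25 per bar), with the 5 GATA windows as vertical lines, solid red where adjusted p was below 0.05 and dashed grey otherwise. GATA3, GATA6 and GATA2 lie in or beside the tallest bars, GATA5 lies in the right tail and GATA4 (-1.63) in the broad left shoulder.

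The values of all windows formed a peak on the positive side, with 16.3% between 0.5 and 1, and a broad shoulder on the negative side, with 32.7% below -1. GATA3, GATA6 and GATA2, at 0.60, 0.89 and 1.12, lay in or next to the peak, where 67.5%, 77.4% and 84.5% of windows had lower values. These 3 thus lay where many promoters did, while GATA5 lay at the upper edge and GATA4 in the shoulder.

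The 5 members were also set against input. The comparison used all 6 libraries and 17226 tested windows, and it shares the NuMA libraries with the comparison above. NuMA ChIP was set against the mean of the 2 inputs, which were separate groups in the fit. Each input is 1 library, so the spread came from the ChIP groups only. GATA5 was higher in NuMA ChIP than in input by 2.38 ± 0.58 (SE, adjusted p = 0.000632) and GATA2 by 1.66 ± 0.44 (SE, adjusted p = 0.00157). These were 2 of 5 members, where 17.2% of all windows tested were higher, 11.9% lower and 29.1% either. GATA6 was at 0.70 ± 0.41 (adjusted p = 0.183), GATA3 at -0.26 ± 0.56 (0.762) and GATA4 at -0.68 ± 0.45 (0.258), each with SE, and none of the 3 passed. The GATA2 call ended when NuMA replicate 1 was left out (0.91, adjusted p = 0.189) or the IgG input was (1.32, adjusted p = 0.0698). That of GATA5 ended when IgG replicate 1 was left out (2.31, adjusted p = 0.0596). Scaling on total counts moved the median of all windows by -0.44 and gave 35.9% higher calls in place of 59.1%, and profile scaling moved it by 0.30 and gave 73.1%. GATA2 and GATA5 passed as higher under both.

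Relative to the input of its own arm, GATA5 stood at 4.96 and 3.18 times input in NuMA ChIP replicates 1 and 2 and at 1.27 and 0.77 times in IgG ChIP. GATA2 stood at 2.59 and 1.46 times in NuMA ChIP and 1.65 and 0.98 times in IgG ChIP, so its lower NuMA library lay within the IgG range. GATA6 was at 0.94 and 1.16 times input with NuMA, close to input itself, and at 0.91 and 0.72 times with IgG. GATA3 was below input in every ChIP library, at 0.44 and 0.85 times with NuMA and 0.35 and 0.54 times with IgG. GATA4 was at 0.27 and 0.71 times input with NuMA and at 1.97 and 1.10 times with IgG. NuMA against IgG ChIP was also tested with each group taken relative to its own input, and no member passed. There GATA5 was at 2.37 (adjusted p = 0.137), GATA4 at -1.38 (0.241), GATA2 at 1.0 (0.408), GATA3 at 0.91 (0.568) and GATA6 at 0.71 (0.535). This is a difference between differences, not a test of NuMA ChIP against its own input. Against the NuMA input alone, the fit gave GATA5 at 2.53 and GATA2 at 1.53.

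The background pull-down itself varied between members without passing a test. IgG ChIP against input gave 0.80 ± 0.42 at GATA4 (adjusted p = 0.332), 0.41 ± 0.46 at GATA2 (0.682), 0.30 ± 0.58 at GATA5 (0.828), -0.34 ± 0.44 at GATA6 (0.729) and -1.04 ± 0.61 at GATA3 (0.39), with SE. In edgeR 0 of 5 passed, where 0.302% of all windows did (0.238% higher and 0.0639% lower). Also 0 of 5 had an unadjusted p under 0.05 in edgeR, beside 2722 of 17226 windows tested. The same 0 of 5 was found with DESeq2 (beside 1137 windows) and limma-trend (beside 2345). With 5 members, these counts are too few to set the family apart from all windows. The lowest unadjusted p in edgeR was 0.0576, at GATA4. Without IgG replicate 1 the values at GATA2 (-0.14) and GATA5 (-0.21) changed sign and GATA4 was at 0.21, and on profile scaling GATA2 (-0.40) and GATA5 (-0.50) were negative while GATA3 passed (-1.90, adjusted p = 0.0412). For GATA4, the 2 sides of the NuMA against IgG difference were thus a NuMA value of -0.68 and an IgG value of 0.80 relative to input, neither passing.

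**Figure D3:**
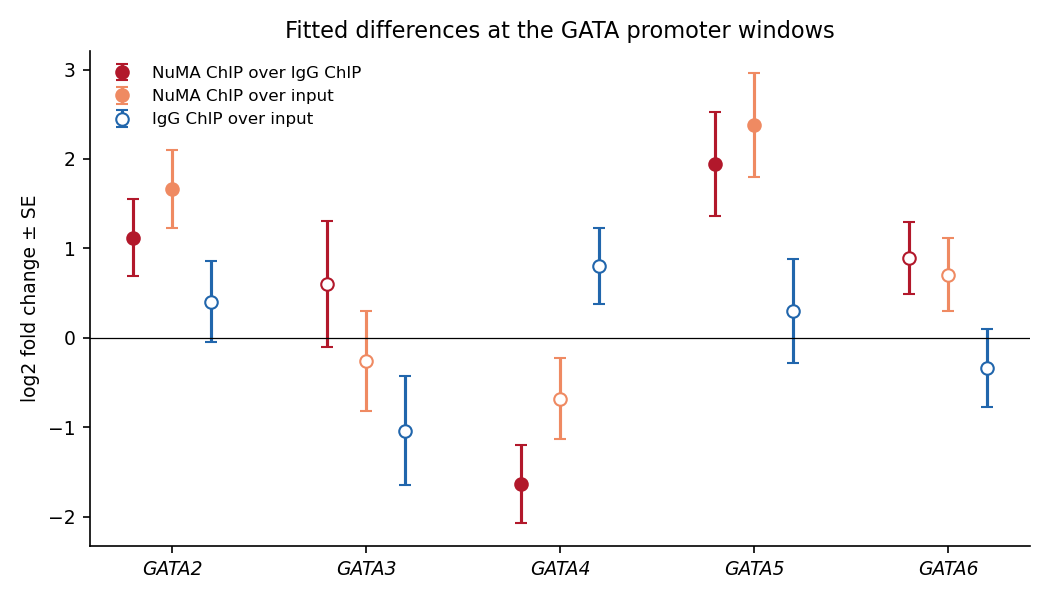
Log2 fold changes with SE at the 5 GATA windows for NuMA ChIP over IgG ChIP, NuMA ChIP over input and IgG ChIP over input, with filled points where adjusted p was below 0.05. GATA5 and GATA2 have filled points in both NuMA comparisons, GATA4 only against IgG (-1.63), and no IgG over input point is filled.

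Ratios of counts between 2 members within 1 library do not depend on any scaling between libraries. GATA5 and GATA4 gave the widest contrast. GATA5 held 24.6 and 6.11 times the counts of GATA4 in NuMA ChIP, 1 and 1.08 times in IgG ChIP, 1.36 times in the NuMA input and 1.55 times in the IgG input. In other words, the 2 windows were level in IgG ChIP and near level in input, and far apart with the NuMA antibody. GATA2 over GATA4 was 10.8 and 2.37 in NuMA ChIP against 0.75 and 0.79 in IgG ChIP, and GATA6 over GATA4 was 4.76 and 2.26 against 0.47 and 0.67. GATA3 over GATA4 was 1.35 and 1 against 0.15 and 0.42. GATA5 over GATA2 was 2.28 and 2.58 in NuMA ChIP against 1.33 and 1.37 in IgG ChIP, a narrow but separate pair of ranges. Of 10 such pairs, 6 had NuMA and IgG libraries that did not overlap, among them all 4 pairs with GATA4. Those 4 pairs share the GATA4 counts, so they are not independent of one another. Full separation was common for the CPM of single tested windows, at 32.0% with NuMA on top and 40.8% with IgG on top. How often pairs of other windows separate was not tested, so the count of 6 cannot set the family apart. An exact permutation test, two-sided, has only 6 arrangements of these libraries and thus no p below 0.333, which all 6 pairs reached (0.556 adjusted over 10 pairs).

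**Figure D4:**
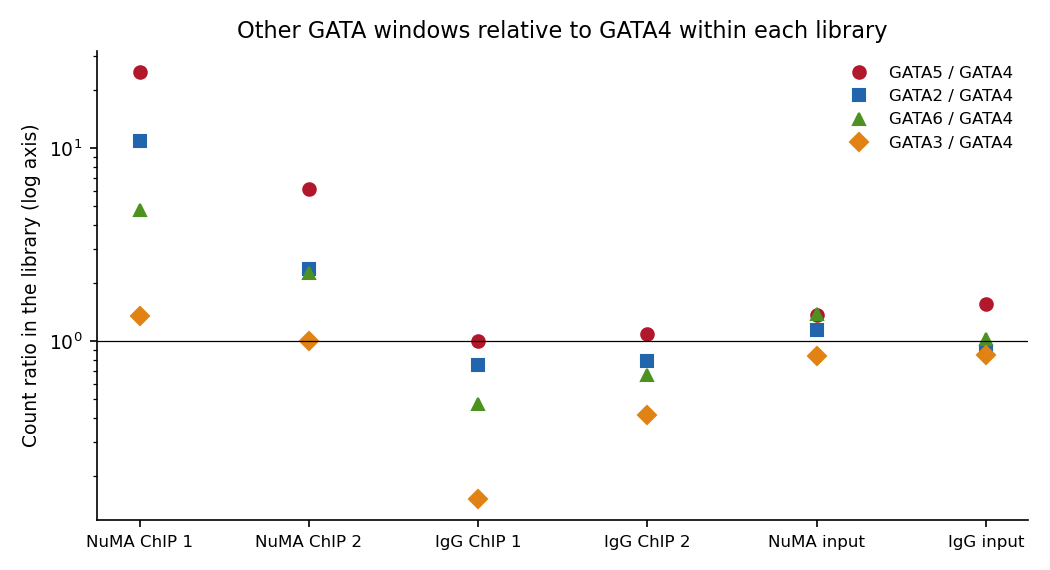
Counts of the GATA5, GATA2, GATA6 and GATA3 windows divided by the count of the GATA4 window in the same library, on a log axis, 1 point per library. All ratios to GATA4 are higher in both NuMA ChIP libraries than in both IgG ChIP libraries, with GATA5 at 24.6 and 6.11 against 1 and 1.08.

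The nearest windows with a gene symbol on either side, taken by position, give the setting of each member. DNAJB8, a chaperone gene 25.9 kb from GATA2, fell in NuMA against IgG ChIP by 2.37 (adjusted p = 0.000344), with 14 and 9 NuMA counts against 52 and 26, so GATA2 and this neighbour went opposite ways. On the other side of GATA2, RAB7A, a gene of endosome traffic 233 kb away, was at 0.82 and did not pass (adjusted p = 0.314). At GATA5, the neighbours were RBBP8NL at 0.62 (48.4 kb away, adjusted p = 0.213) and the organic anion transporter gene SLCO4A1 at 1.93 (166 kb away, adjusted p = 0.00264). The fold of SLCO4A1 was near that of GATA5 (1.94), but its NuMA counts were lower, at 276 and 138 against 419 and 165. At GATA4, BLK, a kinase gene of B cells 183 kb away, was at -2.10 (adjusted p = 0.00201), and NEIL2, a DNA glycosylase gene 92.7 kb away, was at 0.05 (adjusted p = 0.934). At GATA3, neither TAF3 at -0.23 (235 kb away, adjusted p = 0.745) nor CELF2 at -1.25 (2745 kb away, adjusted p = 0.177) passed. At GATA6, CTAGE1 at -1.41 (248 kb away, adjusted p = 0.0829) did not pass and MIB1 (464 kb away), with 0 to 4 counts in each library, was not tested. Directions at neighbours thus ranged from the same as the member to the opposite.

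The windows most like each member in level are named next. Likeness was the Euclidean distance of log2 CPM over 6 libraries among 14719 windows. The nearest to GATA5 were the potassium channel gene KCNS2 (0.18), with 394 and 168 NuMA counts, and the motilin receptor gene MLNR (0.21). The nearest to GATA2 were SHC2 (0.29) and PIK3AP1 (0.30), and the nearest to GATA6 were DNAAF2 (0.21) and OTULIN (0.30). NUCKS1 (0.33) and ANXA5 (0.42) were nearest to GATA3, and KCNJ9 (0.42) and POMGNT1 (0.44) to GATA4. The closest pair within the family, GATA2 and GATA6, was 1.38 apart, a value from a search of 4 other members only, so it cannot be set against the distances above.

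Genes that work with GATA factors were described from lists, given by counts beside all windows tested (16.8% higher, 23.9% lower, median -0.04). Of 30 cofactors and partner factors, 26 had a named window and 24 were tested in NuMA against IgG ChIP, of which 8 rose and 1 fell. The other 15 missed the threshold, and the median was 0.91. CREBBP and EP300, the acetyltransferases that GATA factors recruit, rose by 2.29 ± 0.44 and 1.90 ± 0.44 (SE). ZFPM1, the FOG cofactor of the blood GATA factors, rose by 1.85 ± 0.42, from 22 and 9 IgG counts to 118 and 57 NuMA counts. TCF3 (1.48), LMO4 (1.30), LDB1 (1.14), SRF (1.03) and CHD4 (1.01) also rose. LMO2, the bridging protein of the GATA complex of blood cells, fell by 2.67 ± 0.69 (SE, adjusted p = 0.00176), with 13 and 2 NuMA counts against 47 and 16. The cardiac partners NKX2-5 (0.85, adjusted p = 0.101), HAND2 (0.86, 0.0771) and TBX5 (-0.16, 0.769) did not pass. Against input, 7 of 24 were higher and 1 was lower, beside 17.2% and 11.9% of all windows. There CREBBP (1.73) and ZFPM1 (1.64) passed and EP300 (0.56, adjusted p = 0.299) did not. The heart factors HAND2 (1.95), HAND1 (1.62), TBX20 (1.51) and NKX2-5 (1.17), and the endoderm factor FOXA2 (1.64), made up the rest of the 7. Without NuMA replicate 1 the list had 1 higher and 1 lower member, and DESeq2 gave 3 and 1. On profile scaling 20 were higher and 0 lower, and in NuMA against IgG ChIP relative to own inputs 1 was higher and 0 lower.

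Other proteins with GATA-type zinc fingers made a shorter list of 10, with 8 tested. MTA2 and MTA1, subunits of the NuRD deacetylase complex, rose by 1.45 ± 0.51 and 1.08 ± 0.44 (SE, adjusted p = 0.0189 and 0.0428), and the other 6 did not pass. Among those were the NuRD genes GATAD2B (0.93) and GATAD2A (0.85), and GATA1, the erythroid member of the family, at -0.93 ± 0.72 (SE, adjusted p = 0.285) with 11 and 17 NuMA counts against 20 and 15. The median was 0.87. Above 1.5-fold, after thinning to the smallest library and relative to own inputs, 0 of the 8 passed. With at least 30 counts, 1 of 7 tested passed, as lower. Against input, where 17.2% of all windows were higher and 11.9% lower, 1 of 8 was higher (GATAD1 at 1.04, adjusted p = 0.044) and 1 was lower (GATA1 at -1.43, adjusted p = 0.0375). In NuMA against IgG ChIP, 1 passed without IgG replicate 1, 0 passed without NuMA replicate 1 or without IgG replicate 2, and on profile scaling 6 passed as higher.

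Genes with described GATA elements, mostly expressed in heart, blood, gut, lung or gonads, made the longest list. Of 35, 30 had a named window and 27 were tested. Among them 12 fell and 1 rose, 14 missed the threshold, and the median was -1.33. The myosin heavy chain genes of heart muscle, MYH6 and MYH7, fell by 3.06 ± 0.46 (SE) and fell by 2.61 ± 0.52 (SE), MYH6 from 72 and 43 IgG counts to 10 and 11 NuMA counts. VWF, the endothelial clotting factor, fell by 2.46 ± 0.42 (SE) and the natriuretic peptide gene NPPA by 1.68 ± 0.42 (SE). The other 8 that fell were SFTPA1, a lung surfactant protein gene (-2.33), TFF3 (-2.17), the T-helper cytokine gene IL4 (-1.94), VCAM1 (-1.91), CYP19A1, the aromatase gene (-1.79), TTR (-1.66), LCT, the lactase gene (-1.60), and the erythroid factor gene KLF1 (-0.99). KIT, a stem cell factor receptor and GATA2 target, rose by 1.44 ± 0.49 (SE, adjusted p = 0.0161), with 245 and 125 NuMA counts against 62 and 26. Against input, 7 of 28 were lower and 4 higher, beside 11.9% and 17.2% of all windows. The lower ones were MYH6, MYH7, VWF, TFF3 and SFTPA1, with TNNC1 and EDN1, which had not passed against IgG. The other genes named above as falling did not pass against input, with values from -1.44 (IL4) to -0.05 (LCT). The counts that follow are again for NuMA against IgG ChIP. On profile scaling the direction turned, with 7 higher and 2 lower, and there were 5 lower and 0 higher without NuMA replicate 1 and 7 lower and 0 higher without IgG replicate 2. Relative to own inputs, 3 were lower and 0 higher. The difference between lists was not tested.

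**Figure D5:**
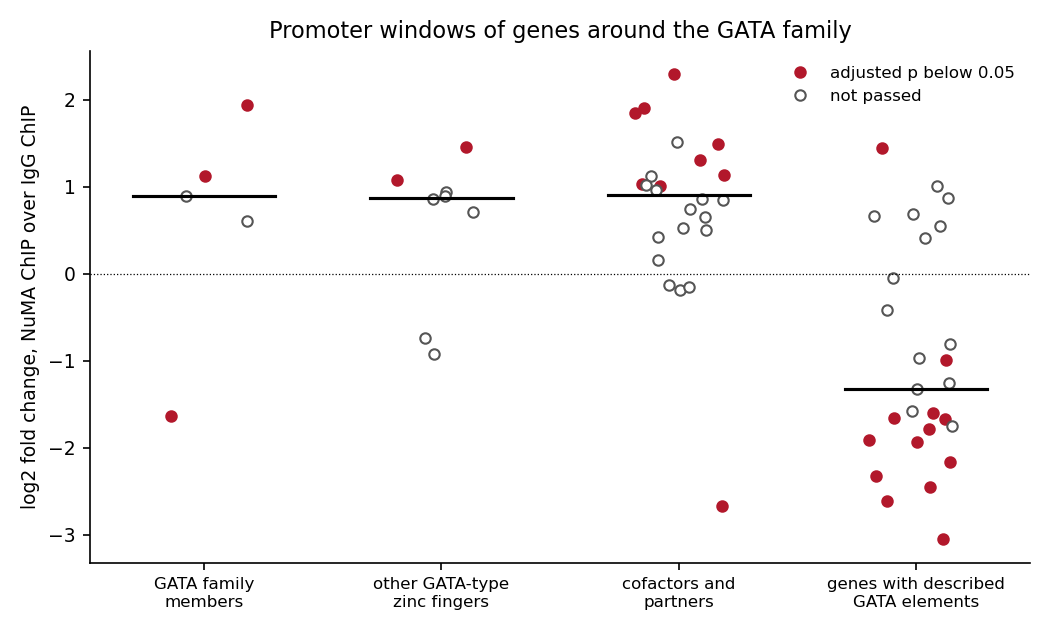
Log2 fold changes, NuMA ChIP over IgG ChIP, of tested windows in the GATA family and 3 lists around it, 1 point per gene (sideways position arbitrary), red where adjusted p was below 0.05, with a bar at each median. The medians were 0.89, 0.87, 0.91 and -1.33 from left to right. GATA1 is plotted with the other GATA-type zinc fingers, not with the family.

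Among 12 fibroblast marker genes, 9 were tested in NuMA ChIP against input. There 2 were lower (COL1A1 and PDGFRB) and 0 higher, beside 11.9% and 17.2% of all windows. TWIST1 (0.98, adjusted p = 0.0552) and THY1 (-1.17, 0.204) did not pass against input. In NuMA against IgG ChIP, 7 were tested, 3 fell and 1 rose, beside 23.9% and 16.8% of all windows. The median was -0.79, and the counts became 3 higher and 0 lower on profile scaling. TWIST1, a mesenchymal regulator, rose by 1.35 ± 0.41 (SE) and THY1, a surface marker, fell by 2.72 ± 0.66 (SE). PDGFRB, a growth factor receptor gene, was at -2.03 and COL1A1, a collagen gene, at -1.11, and both passed. Without IgG replicate 2 and without NuMA replicate 1 there was 1 lower and 0 higher in each case, without IgG replicate 1 there was 1 in each direction, and 0 passed relative to own inputs.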

How the data were processed

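Promoter windows were counted by the authors, and the deposited table holds raw counts with no normalization. Tools listed in the submitters' processing notes are featureCounts, MACS2, bedtools and BWA (0.7.17-r1188), with build hg38 and no roles, and how read pairs were counted is not given in the sources used here. Counts of 6 to 10 were even in 72.7% to 79.8% of cases, against 60% for an even spread. The deposited summed profile is signal per position around the start, unscaled per the file headers, and was used only for scaling (outermost 500 positions on each side).

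The table has Ensembl identifiers only. Symbols were assigned by position, from the closest start of a protein-coding gene in RefSeq on the same strand within 1000 bp. This named 17373 windows (87.1%), and 4.43% matched when shifted by 20000 bp.

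The count model was edgeR 4.0.16, run under R 4.3.3 (filterByExpr minimum count 10, TMM, quasi-likelihood F-test, Benjamini-Hochberg over all windows tested, threshold 0.05). NuMA against IgG ChIP used 4 libraries, and the input comparisons used 6. SE came from the log2 fold change and F. CPM used library totals. DESeq2 1.42.0 and limma 3.58.1 (limma-trend, prior count 2) were alternatives. The fits were tested on simulated data. The members and lists were chosen with earlier results of these data known. The 5 members, the highest, lowest and passing members of each list and the 2 nearest windows by level are named by rule. Flanking windows and other list members were added after their values were seen.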

Additional observations from a re-analysis of the deposited data

How the results depend on the processing

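Of the 5 members, 3 passed in NuMA against IgG ChIP (2 higher, 1 lower). This became 1 in DESeq2, 1 of 3 tested with at least 30 counts, and 0 with each group relative to its own input, and ranged from 1 to 3 when a library was left out. No member changed direction in this comparison in any of the 15 or 16 alternatives with a value. These leave out the correction for GC content described below. GATA2 lost its call in 8 of 16, GATA4 in 5 of 15 and GATA5 in 3 of 16, while GATA3 passed on profile scaling only (1.92, adjusted p = 0.0084). GATA2 was also lost with at least 30 counts (0.51), above 1.5-fold (adjusted p = 0.0994) and on thinning to the smallest library (adjusted p = 0.0843). Over all windows, 6401 calls became 3751 in DESeq2, 2591 with at least 30 counts, 604 relative to own inputs and 3905 after thinning, and 2041 to 5781 without 1 library.

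Against input, members called ranged from 1 to 2 without 1 library, and the 5005 calls over all windows became 2365 in DESeq2, 2545 on profile scaling, 3179 with the own input and 2321 to 5165 without 1 library. GATA3 turned from -0.26 to 0.025 on profile scaling. For IgG against input, the 52 calls (41 higher, 11 lower, 2722 at an unadjusted p under 0.05) became 0 in DESeq2 (1137 unadjusted), 0 in limma-trend (2345 unadjusted), 0 on total-count scaling, 0 with the own input, 96 with at least 30 counts, 828 on profile scaling (0.966% of them higher in place of 78.8%) and 0 to 397 without 1 library. The 5 members had 1 call there on profile scaling. Values of GATA2 turned to -0.40 on profile scaling and -0.14 without IgG replicate 1, and those of GATA5 to -0.50 and -0.21, and without 1 library they ranged from -0.14 to 0.77 at GATA2 and from -0.21 to 0.66 at GATA5. The cause was not tested in any of these.

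With the replicate number as a block, 3 members passed as before, GATA2 at 1.12 (adjusted p = 0.00565), GATA4 at -1.64 (0.00186) and GATA5 at 1.95 (3.63e-08), and 7607 windows were called. The differences between replicates 1 and 2 correlated at r = 0.18 between the NuMA and IgG groups across 15727 windows, which are not independent. With 2 pairs this does not show that the numbers pair the libraries. A correction for GC content is void, because only 10687 of 15727 tested windows (68.0%) had a promoter sequence. GATA4 and GATA5 were not among them, so that correction gave no value for these 2, with or without the block. Its values for GATA2, GATA3 and GATA6 are left out for the reason above. Counts were lowest at GATA3, with 10 in its thinnest library, while GATA6, GATA4 and GATA2 had 16, 17 and 19 in theirs.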
